A study of Mus musculus with 9 samples.

Results

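The MHC class I presentation genes described here are H2-K1, H2-D1, B2m, Tap1, Tap2, Tapbp, Psmb8, Psmb9, Psmb10 and Nlrc5. They were taken by gene symbol, with 1 transcript per symbol, the one with the most reads summed over the 9 libraries. All 10 genes were present among the 23992 symbols measured, and all 10 were among the 10702 genes tested (those that reached an RPKM, the read count relative to transcript length and library depth, of 1 or more in 3 or more libraries).

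Messenger RNA was sequenced from spleen-derived regulatory T cells (Tregs) of BALB/c mice. The cells were identified by GFP expressed from Foxp3 and carried, after transduction, an engineered (orthogonal) beta chain of the IL-2 receptor, oIL-2Rβ, with a human EGFR tag; ortho IL-2 is the cytokine altered to pair with it. All groups shared the same preparation, in which CD3/CD28 beads with human IL-2 (1000 IU/mL) were applied for 48 hours, tagged cells were pulled out magnetically, and IL-2 was withheld overnight. The ortho IL-2 group then received 2000000 IU/mL ortho IL-2 for 4 hours, the WT IL-2 group received 20000 IU/mL wild-type IL-2 for 4 hours, and the no IL-2 group received none for the same time. Each group has 3 libraries. The 2 cytokines were given at different doses, and no age of the mice is given in the labels. Whether replicate libraries stem from separate mice or cultures is not stated, so the p-values reflect the spread among libraries, possibly a technical one.

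MHC class I molecules carry peptides of cytosolic proteins to the cell surface, where CD8 T cells read them. The immunoproteasome cuts proteins into peptides, the TAP transporter moves the peptides into the endoplasmic reticulum, and tapasin holds the transporter beside an empty class I molecule, which is a heavy chain paired with beta-2 microglobulin. Interferons raise the whole set, in part through the factor IRF1, and NLRC5 is the transcriptional coactivator that acts on class I promoters.

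Promoter windows from RefSeq on the GRCm38.p6 build were found for 8 of the 10 genes. Each covers 250 bases before and 50 bases from an annotated start on. Tap2 and Nlrc5 had no entry. The 4 windows printed here belong to genes with contrasting results, Tap1 and Psmb8 against H2-K1 and B2m. The sequence is that of the reference strain C57BL/6J, not of BALB/c. Capitals mark matches on either strand. The letters are GAANNGAA (a form of the repeat in interferon-stimulated response elements), TTCNNNGAA (a gamma-activated site) and GGNNNTTCC (a kappaB site). TGACG (part of a cyclic AMP response element) and CCAAT (the CCAAT box) are marked too.
Tap1 (chr17:34187306-34187605, plus strand): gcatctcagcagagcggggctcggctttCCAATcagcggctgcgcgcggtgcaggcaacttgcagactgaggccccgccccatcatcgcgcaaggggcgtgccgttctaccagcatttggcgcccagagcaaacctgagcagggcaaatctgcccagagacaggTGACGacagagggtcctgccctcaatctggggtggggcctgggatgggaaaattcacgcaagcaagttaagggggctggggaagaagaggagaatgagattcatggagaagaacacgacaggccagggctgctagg
Psmb8 (chr17:34197945-34198244, plus strand): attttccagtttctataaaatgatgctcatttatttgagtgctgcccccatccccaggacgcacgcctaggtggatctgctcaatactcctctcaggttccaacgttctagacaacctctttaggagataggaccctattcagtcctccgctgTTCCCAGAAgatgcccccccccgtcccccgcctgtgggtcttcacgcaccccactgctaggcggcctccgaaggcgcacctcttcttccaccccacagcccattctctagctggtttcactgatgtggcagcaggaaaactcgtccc
H2-K1 (chr17:34000298-34000597, minus strand): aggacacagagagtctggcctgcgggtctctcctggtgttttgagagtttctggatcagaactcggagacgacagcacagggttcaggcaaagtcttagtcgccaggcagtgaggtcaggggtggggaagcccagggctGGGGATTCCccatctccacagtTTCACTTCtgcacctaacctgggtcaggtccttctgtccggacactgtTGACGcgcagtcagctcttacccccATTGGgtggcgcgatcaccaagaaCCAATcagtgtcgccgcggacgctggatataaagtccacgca
B2m (chr2:122147437-122147736, plus strand): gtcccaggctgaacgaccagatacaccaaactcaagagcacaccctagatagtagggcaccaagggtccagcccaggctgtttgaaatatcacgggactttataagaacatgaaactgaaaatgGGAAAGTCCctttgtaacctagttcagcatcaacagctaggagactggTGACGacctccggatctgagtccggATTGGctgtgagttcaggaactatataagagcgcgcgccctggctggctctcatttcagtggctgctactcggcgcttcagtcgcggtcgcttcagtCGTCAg

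The gamma-activated letters occurred in 1 of the 8 genes' windows, that of Psmb8, starting 97 bases before the start, and in 8.30% of all 32851 windows of this length. The kappaB letters occurred in 3 windows, those of H2-K1, H2-D1 and B2m, against 18.5% of all windows. The GAANNGAA letters were found in 3 windows, those of H2-K1, H2-D1 and Psmb10, against 20.1% of all. Other spacings of this repeat were not searched, so gaaactgaaa in the B2m window is unmarked and outside this count. The TGACG letters were in 5 windows, against 20.8% of all, and CCAAT was in 6 windows, against 37.4%. Tap1 and Psmb9 share 1 match of each of the last pair of motifs, because their windows overlap on opposite strands. H2-K1 has windows for more than 1 start, and both hold the same motifs. Both H2-K1 windows lie within the gene's span of chr17:33996012-34000619, so their starts are not its outer end at base 34000619. These matches describe letters in a window and are not evidence of binding.

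The libraries held 16581624 to 58182835 reads in the chosen transcripts. The authors' RPKM divisor, the library depth behind their RPKM, exceeded these reads. The share outside the chosen transcripts was 25.7% to 33.0% of the divisor in the ortho IL-2 libraries. It was 29.1% to 34.9% in the WT IL-2 libraries and 38.9% to 43.3% in the no IL-2 libraries. What the divisor counts is not stated, and reads of transcripts not chosen fall in this share. Il2ra, the IL-2 receptor alpha chain, averaged 1094 ± 49.9 RPKM with ortho IL-2 and 1128 ± 32.7 RPKM with WT IL-2, against 275 ± 2.20 RPKM without IL-2 (SD, n = 3 each). Cish, an IL-2-induced feedback inhibitor, averaged 200.5 ± 26.0 RPKM, 190.5 ± 28.6 RPKM and 24.7 ± 1.09 RPKM in the same groups. Foxp3, the factor that defines Tregs, averaged 235 ± 26.0 RPKM with ortho IL-2 and 222 ± 41.9 RPKM with WT IL-2, against 137 ± 2.50 RPKM without IL-2. For these 3 genes, all stimulated libraries were above all no IL-2 libraries. All 9 Treg and T cell markers were present, with at least 3851 reads each in every library, but most of the list was lower with stimulation: 3 rose, 5 fell and 1 did not pass the edgeR test in each comparison with no IL-2, with median log2 fold changes of -0.14 for ortho IL-2 and -0.18 for WT IL-2. Il2ra, Foxp3 and Tnfrsf18 rose. Cd4 (-0.50 for ortho IL-2 and -0.52 for WT IL-2), Ctla4 (-0.53 and -0.51), Cd3g (-0.47 and -0.47), Ikzf2 (-0.35 and -0.29) and Cd3d (-0.14 and -0.18) fell, although Cd3d was above 0 (0.14 and 0.04) when the authors' RPKM divisor replaced TMM, a scaling that evens out composition between libraries. Cd3e was at -0.05 and -0.04 and did not pass. The list summed to 9912 to 10085 CPM (counts scaled by library depth) with ortho IL-2 and 9926 to 10089 CPM with WT IL-2, against 6575 to 6636 CPM without IL-2. The 9 B cell markers found of 10 summed to 5.71 to 5.90 CPM with ortho IL-2, 4.66 to 5.46 with WT IL-2 and 5.67 to 6.15 without IL-2. The 13 myeloid and dendritic markers found of 14 summed to 11.4 to 12.1, 10.4 to 11.9 and 15.9 to 18.3 CPM in those groups, most of it from Itgam, while Lyz2 and Csf1r had at most 3 reads and 1 read. The 10 markers of CD8 T and NK cells summed to 32.5 to 34.8 CPM with ortho IL-2 and 30.5 to 36.1 CPM with WT IL-2, against 22.4 to 23.7 CPM without IL-2. Among them Ncr1 had at most 4 reads and Klrb1c at most 13. Of the 4 tested (Cd8b1, Nkg7, Gzma and Prf1), 3 rose and 1 did not pass in each comparison. Their median log2 fold changes were 0.98 for ortho IL-2 and 0.92 for WT IL-2. By the same test, 28.5% of all genes tested rose and 27.4% fell with ortho IL-2, and 25.0% and 22.9% with WT IL-2. The 11 erythroid and stromal markers summed to 218 to 233, 218 to 229 and 273 to 288 CPM, nearly all of it from Pecam1. The Treg and T cell list and the last 3 lists move with the stimulation, and their part in the class I results was not tested; in bulk samples, fewer cells of a type and less RNA per cell cannot be told apart.

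With ortho IL-2 or with WT IL-2, 7 of the 10 genes rose and none fell relative to no IL-2. The 7 are the immunoproteasome subunits Psmb8, Psmb9 and Psmb10, the transporter subunits Tap1 and Tap2, tapasin (Tapbp) and the regulator Nlrc5. The 3 genes that encode the class I molecule itself, H2-K1, H2-D1 and B2m, did not pass the test in either comparison. A gene was called at an adjusted p under 0.05 in edgeR's quasi-likelihood test over all 10702 genes. In ortho IL-2 against no IL-2, 28.5% of all genes tested were called higher and 27.4% lower. In WT IL-2 against no IL-2, 25.0% were called higher and 22.9% lower. The median log2 fold change of the 10 genes was 0.49 for ortho IL-2 and 0.40 for WT IL-2, beside medians of 0.01 and 0.01 over all genes tested. Both comparisons use the same no IL-2 libraries.

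**Figure D1:**
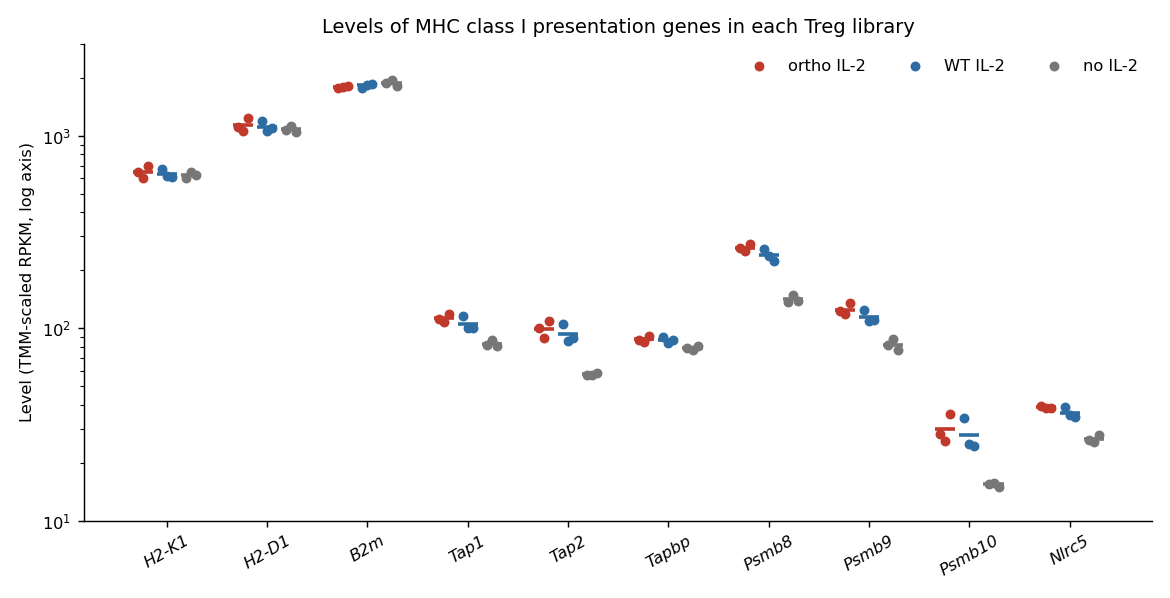
Level of each gene in each library as TMM-scaled RPKM on a log axis; points are libraries, lines are group means, and groups run ortho IL-2, WT IL-2, no IL-2 from left to right. B2m, H2-D1 and H2-K1 sit highest, and the no IL-2 points lie below both stimulated groups for the other 7 genes.

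Levels are given as RPKM on TMM-scaled library sizes, which allows comparison between genes of different length. In every group B2m had the highest mean level, followed by H2-D1, H2-K1 and Psmb8, and each of these 4 was separated from the next by all libraries of the group. Among stimulated cells the order continued with Psmb9, Tap1, Tap2 and Tapbp, whose neighbours overlapped, and ended with Nlrc5 and Psmb10. Without IL-2, Tap1, Psmb9 and Tapbp overlapped, with means of 83.1, 82.2 and 78.9 RPKM, and Tap2 stood clear below them at 57.7 RPKM. Nlrc5 and Psmb10 were again lowest in the no IL-2 group, at 26.5 and 15.4 RPKM.

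H2-K1 and H2-D1 encode the classical class I heavy chains H-2K and H-2D. H2-K1 (GRCm38 chr17:33996012-34000619, minus strand) had 648, 606 and 700.4 RPKM with ortho IL-2, 672, 617 and 610.1 RPKM with WT IL-2, and 605, 647 and 627 RPKM without IL-2. The 3 groups overlapped. Its log2 fold change was 0.06 ± 0.06 (SE) for ortho IL-2 (edgeR adjusted p = 0.457) and 0.02 ± 0.06 for WT IL-2 (edgeR adjusted p = 0.858) against no IL-2. The 95% intervals ran from -0.08 to 0.20 and from -0.12 to 0.16.

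H2-D1 (chr17:35263094-35267497, plus strand) had 1111, 1058 and 1244 RPKM with ortho IL-2, 1189, 1058 and 1101 RPKM with WT IL-2, and 1071, 1131 and 1050 RPKM without IL-2. These groups overlapped too, with ortho replicate 3 and WT replicate 1 highest in their groups. Its log2 fold change was 0.07 ± 0.07 for ortho IL-2 (edgeR adjusted p = 0.403, interval -0.08 to 0.22) and 0.04 ± 0.07 for WT IL-2 (edgeR adjusted p = 0.637, interval -0.11 to 0.20). BALB/c mice carry the H2-d haplotype, whereas the mm10 reference is of the H2-b haplotype, so reads of these polymorphic genes may be lost or assigned to a relative in all 9 libraries. The annotated relative H2-L held 0.533 to 0.580 times the reads of H2-D1 in each library, and whether the pair shares reads cannot be told apart here.

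B2m (chr2:122147687-122153082, plus strand), the invariant light chain of every class I molecule, had 1782, 1797 and 1809 RPKM with ortho IL-2, 1778, 1842 and 1863 RPKM with WT IL-2, and 1879, 1953 and 1812 RPKM without IL-2. Every ortho library lay below every no IL-2 library, by as little as 1809 against 1812 RPKM, and the WT libraries overlapped the no IL-2 group. Such separation downwards was seen in 32.2% of all genes tested in ortho IL-2 against no IL-2. The log2 fold change was -0.07 ± 0.04 for ortho IL-2 (edgeR adjusted p = 0.218, interval -0.16 to 0.03) and -0.04 ± 0.04 for WT IL-2 (edgeR adjusted p = 0.456, interval -0.14 to 0.06). Within the ortho IL-2 group B2m varied least of the 10 genes, with a coefficient of variation of 0.767%. The sign of these 3 small differences depends on the scaling. Without TMM, on the authors' RPKM divisor, the log2 fold changes of H2-K1, H2-D1 and B2m for ortho IL-2 were 0.34, 0.35 and 0.21. All 3 were called higher, as were 5707 of the 10702 genes tested, and the median gene was at 0.29. B2m turned sign there, whereas H2-K1 and H2-D1 turned below 0 after quantile normalization, at -0.02 and -0.03 for ortho IL-2. For WT IL-2 on that divisor only H2-D1 of the 3 was called, at 0.26, beside 4630 of the 10702 genes called higher. After quantile normalization B2m was called lower in both comparisons, at -0.25. Of the 10702 genes, 3156 were called lower there for ortho IL-2 and 2712 for WT IL-2.

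The 3 immunoproteasome subunits replace the catalytic subunits of the constitutive proteasome and change which peptides are cut. Psmb8, also known as LMP7 (chr17:34198195-34201454, plus strand), had 260.1, 251 and 274 RPKM with ortho IL-2, 259, 237 and 223 RPKM with WT IL-2, and 137, 149 and 139 RPKM without IL-2. All stimulated libraries stood above all no IL-2 libraries. The fold was 1.85 for ortho IL-2 (log2 0.89 ± 0.06, edgeR adjusted p = 2.29e-06) and 1.69 for WT IL-2 (log2 0.76 ± 0.06, edgeR adjusted p = 7.19e-06). It had the smallest adjusted p of the 10 genes in both comparisons.

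Psmb9, also known as LMP2 (chr17:34182030-34187330, minus strand), had 123, 118 and 134 RPKM with ortho IL-2, 124, 109 and 109.7 RPKM with WT IL-2, and 82.1, 87.6 and 76.9 RPKM without IL-2. The stimulated and unstimulated groups did not overlap. Psmb9 rose 1.52-fold with ortho IL-2 (log2 0.61 ± 0.07, edgeR adjusted p = 9.93e-05) and 1.39-fold with WT IL-2 (log2 0.47 ± 0.07, edgeR adjusted p = 0.000542).

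Psmb10, also known as MECL-1 (chr8:105935728-105938392, minus strand), had 28.1, 26.0 and 35.7 RPKM with ortho IL-2, 34.1, 24.9 and 24.4 RPKM with WT IL-2, and 15.6, 15.7 and 15.0 RPKM without IL-2. It varied most within the stimulated groups, with a coefficient of variation of 17.1% for ortho IL-2 and 19.7% for WT IL-2, against 2.50% without IL-2. Even so, the lowest stimulated library was above the highest no IL-2 library. Its fold was 1.95 for ortho IL-2 (log2 0.96 ± 0.15, edgeR adjusted p = 0.000456) and 1.80 for WT IL-2 (log2 0.85 ± 0.15, edgeR adjusted p = 0.0011), the largest folds of the 10 genes in both comparisons.

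The peptide transporter is a pair of half-transporters, TAP1 and TAP2. Tap1 (chr17:34187556-34197225, plus strand) had 112, 107 and 118 RPKM with ortho IL-2, 116, 100.4 and 99.8 RPKM with WT IL-2, and 81.8, 86.7 and 80.9 RPKM without IL-2. Tap2 (chr17:34204479-34216321, plus strand) had 100.3, 88.5 and 109 RPKM with ortho IL-2, 105, 86.3 and 89.1 RPKM with WT IL-2, and 57.2, 57.2 and 58.8 RPKM without IL-2. For both genes the stimulated libraries were all above the no IL-2 libraries. Tap1 rose 1.35-fold with ortho IL-2 (log2 0.44 ± 0.07, edgeR adjusted p = 0.000407) and 1.27-fold with WT IL-2 (log2 0.34 ± 0.07, edgeR adjusted p = 0.00206). Tap2 rose 1.72-fold with ortho IL-2 (log2 0.79 ± 0.09, edgeR adjusted p = 6.09e-05) and 1.62-fold with WT IL-2 (log2 0.70 ± 0.09, edgeR adjusted p = 0.00014).

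Tapbp, which encodes tapasin (chr17:33919478-33929290, plus strand), had 87.1, 84.7 and 91.5 RPKM with ortho IL-2, 90.5, 84.1 and 86.7 RPKM with WT IL-2, and 78.5, 77.2 and 81.1 RPKM without IL-2. The stimulated libraries were again all above the no IL-2 libraries, but by less than for any other of the 7 genes. Its fold was 1.11 for ortho IL-2 (log2 0.15 ± 0.05, edgeR adjusted p = 0.0195) and 1.10 for WT IL-2 (log2 0.14 ± 0.05, edgeR adjusted p = 0.0302). This call ended when WT replicate 1 or 3, or no IL-2 replicate 1 or 2, was left out of the WT comparison, and when ortho replicate 3, or no IL-2 replicate 1 or 2, was left out of the ortho comparison. For WT IL-2 it also ended after quantile normalization (log2 0.14, limma adjusted p = 0.0600) and when only genes with an RPKM of at least 5 were tested (log2 0.12, edgeR adjusted p = 0.0696). With an adjustment for transcript GC content the log2 fold change of Tapbp was -0.08 for ortho IL-2 and -0.01 for WT IL-2, neither called.

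Nlrc5 (chr8:94434335-94527272, plus strand) had 39.6, 38.6 and 38.3 RPKM with ortho IL-2, 39.0, 35.5 and 34.5 RPKM with WT IL-2, and 26.2, 25.5 and 27.9 RPKM without IL-2. The ortho libraries differed little, with a coefficient of variation of 1.74%, and no stimulated library overlapped the no IL-2 group. Nlrc5 rose 1.46-fold with ortho IL-2 (log2 0.55 ± 0.06, edgeR adjusted p = 2.63e-05) and 1.37-fold with WT IL-2 (log2 0.45 ± 0.06, edgeR adjusted p = 9.99e-05).

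**Figure D2:**
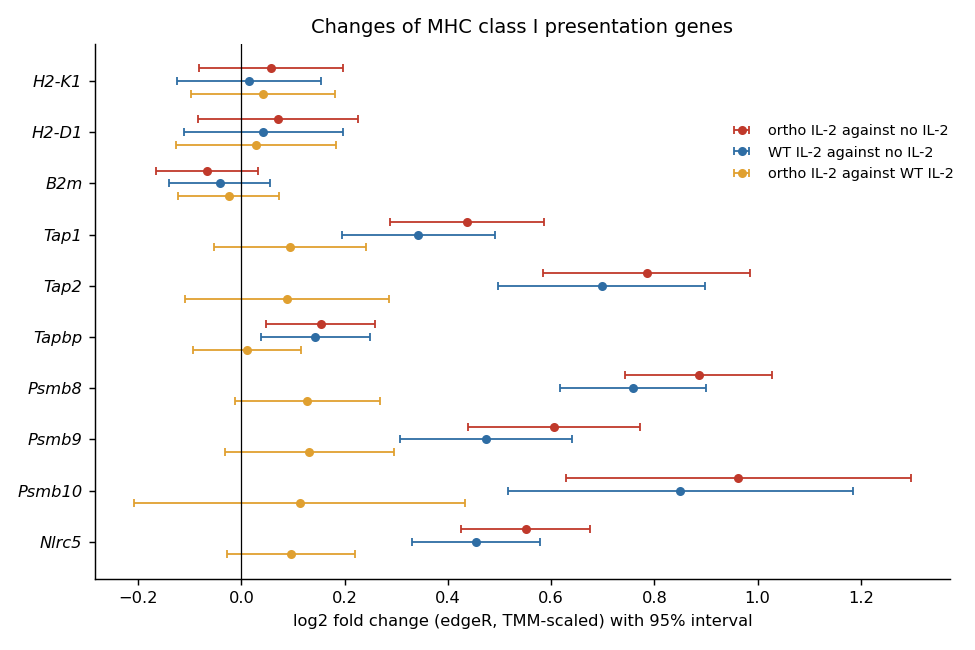
Log2 fold change of each gene with its 95% interval for ortho IL-2 against no IL-2, WT IL-2 against no IL-2 and ortho IL-2 against WT IL-2 (edgeR, TMM-scaled); the vertical line is no difference. Intervals of 7 genes lie above 0 in both comparisons with no IL-2, and all 10 intervals of ortho IL-2 against WT IL-2 include 0.

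Counting separation in place of the test, 7 of the 10 genes had all ortho libraries above all no IL-2 libraries, as did 33.9% of all genes tested. The same 7 genes had all WT libraries above all no IL-2 libraries, against 30.3% of all genes. The share outside the chosen transcripts also separated both stimulated groups from the no IL-2 group without overlap. With that share as a covariate, Psmb8, Tap2 and Nlrc5 remained called higher in both comparisons, whereas Tap1, Tapbp, Psmb9 and Psmb10 did not, with edgeR adjusted p-values from 0.0680 (Psmb9) to 0.564 (Tapbp) in the ortho comparison and from 0.0722 (Psmb9) to 0.455 (Tapbp) in the WT comparison. Their log2 fold changes with the covariate were still above 0, at 0.60 for ortho IL-2 and 0.57 for WT IL-2 for Psmb10, 0.48 and 0.37 for Psmb9, 0.32 and 0.25 for Tap1, and 0.11 and 0.11 for Tapbp. The median of the 10 genes was then 0.40 for ortho IL-2 and 0.31 for WT IL-2. Of all 10702 genes tested, 925 were called higher with the covariate for ortho IL-2 and 1217 for WT IL-2. Psmb8, Tap2 and Nlrc5 were called in all 20 alternatives run for each comparison.

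No difference between ortho IL-2 and WT IL-2 passed the test for any of the 10 genes. No gene was called among the 10 or among all 10702 tested (0%) by edgeR, where 149 genes in all and none of the 10 had an unadjusted p under 0.05; DESeq2 and the other alternatives also called 0. The estimates were positive for 9 of the 10 genes, with a median log2 of 0.09, but that median moved with single libraries. It was -0.00024 without ortho replicate 3, 0.16 without WT replicate 1, 0.038 without WT replicate 2 and 0.042 without WT replicate 3, and with the adjustment for transcript GC content it was 0.029. For Psmb8 the log2 difference was 0.13 (interval -0.01 to 0.27), and for Psmb9 it was 0.13 (interval -0.03 to 0.30). The interval was widest for Psmb10, from -0.21 to 0.43, and for B2m it ran from -0.12 to 0.07. None of the 10 genes separated these groups without overlap, against 4.65% of all genes tested. These intervals show how large a difference could have gone unseen, not that the cytokines act alike, and the doses differed.

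Ratios of levels per length set each gene beside its functional partner. Psmb8 over Psmb5, the constitutive subunit that it replaces, was 6.89 ± 0.89 with ortho IL-2 and 6.70 ± 0.65 with WT IL-2, against 6.13 ± 0.10 without IL-2 (SD, n = 3 each). An exact two-sided permutation test, which cannot go below p = 0.1 with 3 libraries against 3, gave p = 0.1 for ortho IL-2 and p = 0.2 for WT IL-2. Psmb5 itself rose, with a log2 fold change of 0.74 for ortho IL-2 and 0.64 for WT IL-2. Psmb9 over Psmb6 was 2.85 ± 0.24 with ortho IL-2 and 2.87 ± 0.11 with WT IL-2, against 2.41 ± 0.05 without IL-2. Psmb10 over Psmb7 was 0.404 ± 0.101 with ortho IL-2 and 0.382 ± 0.093 with WT IL-2, against 0.242 ± 0.007 without IL-2. In both ratios all stimulated libraries were above all no IL-2 libraries, each at the smallest exact permutation p the design allows, 0.1.

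Tap2 over Tap1 was 0.882 ± 0.052 with ortho IL-2 and 0.887 ± 0.025 with WT IL-2, against 0.695 ± 0.034 without IL-2, again with no overlap and an exact permutation p of 0.1. Psmb9 over Tap1, a pair whose starts lie 225 bases apart on opposite strands, was 1.11 ± 0.02 with ortho IL-2 and 1.08 ± 0.01 with WT IL-2, against 0.988 ± 0.033 without IL-2. H2-K1 over B2m was 0.363 ± 0.025, 0.347 ± 0.027 and 0.333 ± 0.012 in the same order of groups, with exact permutation p-values of 0.2 for ortho IL-2 and 0.6 for WT IL-2. H2-D1 over B2m was 0.633 ± 0.050 with ortho IL-2 and 0.611 ± 0.050 with WT IL-2, against 0.576 ± 0.005 without IL-2. All ortho libraries, at 0.589 to 0.688, were above all no IL-2 libraries, at 0.570 to 0.579, and the WT libraries overlapped them, with exact permutation p-values of 0.1 for ortho IL-2 and 0.3 for WT IL-2. The 7 ratios make up 1 family, and at these p-values none passes an adjustment over it.

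**Figure D3:**
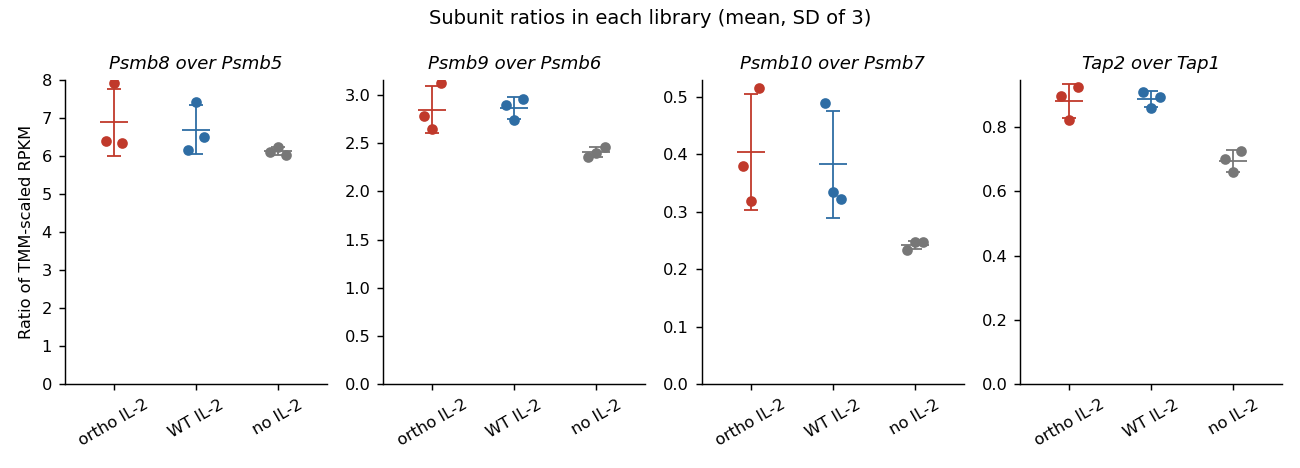
Ratio of levels per length in each library for 4 pairs, with axes starting at 0; points are libraries, horizontal lines means, and bars the SD of 3. Psmb9 over Psmb6, Psmb10 over Psmb7 and Tap2 over Tap1 lie higher in every stimulated library than in any no IL-2 library, and Psmb8 over Psmb5 is spread widely in stimulated libraries.

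The 10 genes lie on 3 chromosomes. H2-K1, H2-D1, Tap1, Tap2, Tapbp, Psmb8 and Psmb9 lie in the MHC on chromosome 17, where Psmb9, Tap1, Psmb8 and Tap2 lie within 34292 bases. B2m is on chromosome 2, and Psmb10 and Nlrc5 are on chromosome 8. With the exons of all GENCODE transcripts of each gene pooled, those of Tap1 and Psmb9 overlap on opposite strands. The RefSeq spans of this pair do not overlap, with 225 bases between them. In the pooled exons, Tap2, Psmb8, Tapbp and Nlrc5 overlap other annotated genes. Of these partners, Zbtb22 lies on the same strand as Tapbp, and the others lie on the opposite strand from the gene they overlap. Since strand use is not given, reads on opposite strands cannot be told apart wherever counted transcripts overlap. Strand would not separate any that Tapbp and Zbtb22 share. Apart from Tap1 and Psmb9, whether the counted RefSeq transcripts overlap was not checked. H2-K1, H2-D1, B2m and Psmb10 have no such overlap in the pooled exons, which does not settle whether H2-D1 shares reads with H2-L.

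Across the 10 genes, ortho replicate 3 was the highest ortho library for 9, and WT replicate 1 was the highest WT library for 9; over all genes tested the same libraries were highest in their groups for 40.0% and 42.3%. Those libraries also had the greatest excess of GC-rich over GC-poor transcripts, 0.47 and 0.40 on the log2 scale, against -0.24 to -0.30 in the no IL-2 libraries. The transcripts of 8 of the 10 genes had a GC content of 55.3% to 57.3%, where the median of all genes tested was 50.0%; Nlrc5 had 52.9% and B2m 41.2%. With GC adjusted, Tap1, Tap2, Psmb8, Psmb9, Psmb10 and Nlrc5 were called higher in both comparisons, with Tap1 at a log2 fold change of 0.20 for ortho IL-2 and 0.19 for WT IL-2. H2-K1 was then called lower, at -0.15 for ortho IL-2 and -0.12 for WT IL-2, and H2-D1 was called lower at -0.12 for ortho IL-2. With this adjustment, 3225 of the 10702 genes tested were called higher and 3192 lower for ortho IL-2. For WT IL-2, 3152 were called higher and 2972 lower.

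**Figure D4:**
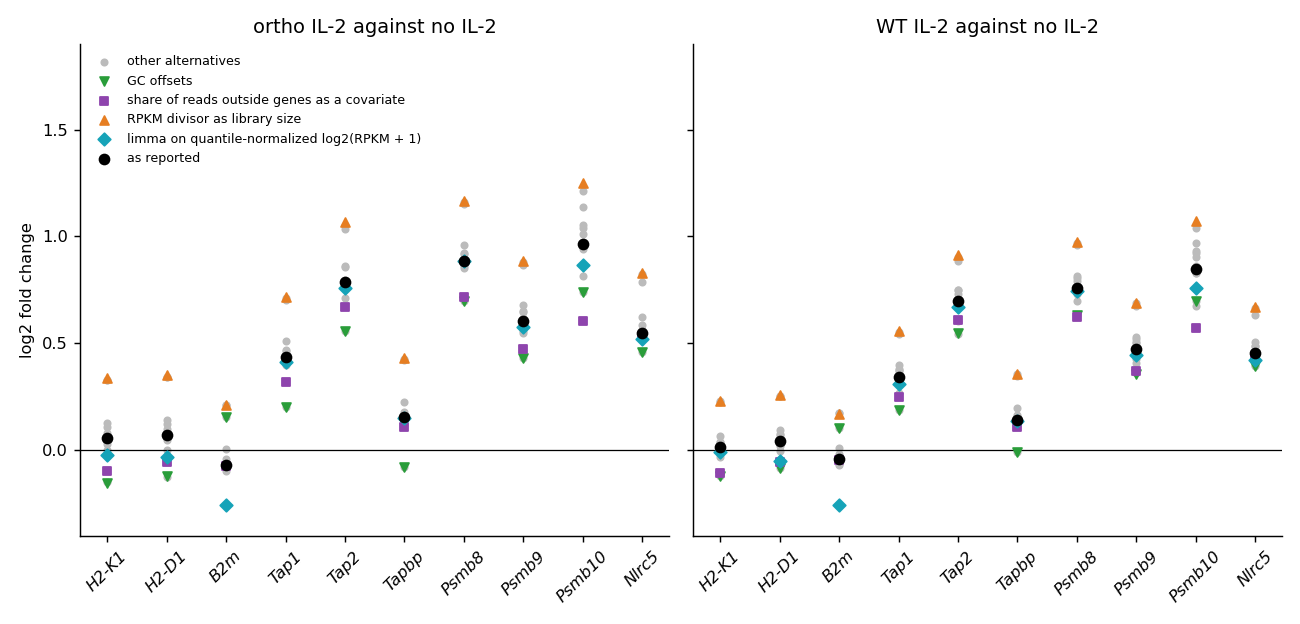
Log2 fold change of each gene against no IL-2 under each alternative processing, for ortho IL-2 on the left and WT IL-2 on the right; black circles are the values reported, and coloured marks are 4 of the alternatives. Psmb8, Tap2 and Nlrc5 stay above 0.39 throughout, while H2-K1, H2-D1, B2m and Tapbp lie on both sides of 0.

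Most relatives of the class I heavy chains, like H2-K1 and H2-D1, did not pass the test. Of 27 other class I and class I-like genes, 23 were tested; 2 rose, 2 fell and 19 did not pass the test with ortho IL-2, and 1 rose, 2 fell and 20 did not with WT IL-2. Cd1d1, which presents lipids to NKT cells, averaged 13.0 ± 0.35 RPKM with ortho IL-2 and 12.5 ± 0.52 RPKM with WT IL-2, against 19.3 ± 1.31 RPKM without IL-2, and fell in both comparisons (log2 -0.57 and -0.63). Its copy Cd1d2 fell as well, with log2 fold changes of -0.58 and -0.77. H2-M2 rose at a low level, averaging 1.49 ± 0.50 RPKM with ortho IL-2 and 1.48 ± 0.31 RPKM with WT IL-2, against 0.808 ± 0.220 RPKM without IL-2. H2-Q2 rose with ortho IL-2 (log2 0.34) and had a log2 fold change of 0.12 with WT IL-2, which did not pass. H2-Q6 and H2-Q8 differed by at most 3 reads in any library and H2-Q7 and H2-Q9 by at most 2, so these copies cannot be separated.

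The loading and trimming genes, which fold class I molecules and fit peptides to them, moved both ways. Of 12, 6 rose, 3 fell and 3 did not pass in each comparison. Over all genes tested, 28.5% rose and 27.4% fell with ortho IL-2, and 25.0% rose and 22.9% fell with WT IL-2. The count of falls is near that background, so it says nothing about the list as such. Erap1, the peptidase that trims peptides in the endoplasmic reticulum, averaged 35.5 ± 1.68 RPKM with ortho IL-2 and 38.2 ± 3.30 RPKM with WT IL-2, against 28.2 ± 0.61 RPKM without IL-2. The chaperone Hspa5 rose by log2 0.32 with ortho IL-2 and 0.38 with WT IL-2, and the glucosidase subunit Ganab by 0.25 and 0.18. Lnpep, an aminopeptidase of endosomes, fell, with log2 fold changes of -0.38 and -0.32. The other 4 genes named here were chosen after their values were seen. The peptide editor Tapbpl rose by log2 0.28 with ortho IL-2 and 0.24 with WT IL-2, the chaperone Calr rose by 0.17 and 0.23, and Pdia3, the tapasin partner, fell (-0.30 and -0.22). The glucosyltransferase Uggt1, which checks folding, fell (-0.14 and -0.14) but was above 0 without TMM (0.13 and 0.08 with the divisor).

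Most constitutive proteasome and activator genes rose with the immunoproteasome. Of 20 tested, 14 rose, 2 fell and 4 did not pass with ortho IL-2. With WT IL-2, 15 rose, none fell and 5 did not pass. Among all genes tested, 28.5% rose and 27.4% fell with ortho IL-2, and 25.0% rose and 22.9% fell with WT IL-2. Psmb5 averaged 38.5 ± 6.03 RPKM with ortho IL-2 and 36.0 ± 5.34 RPKM with WT IL-2, against 23.1 ± 0.67 RPKM without IL-2. Psmb6 rose by log2 0.36 with ortho IL-2 and 0.22 with WT IL-2, Psmb7 by 0.23 and 0.20, and the core subunit gene Psmb4 by 0.31 and 0.22. The activator subunit Psme1 rose by 0.26 and 0.28 and Psme3 by 0.39 and 0.46. Psme2, chosen after its values were seen, rose by 0.24 with ortho IL-2 and 0.24 with WT IL-2. The 2 that fell with ortho IL-2, Psma1 (-0.17) and Psme4 (-0.18), had log2 fold changes of -0.10 and -0.09 with WT IL-2 and were above 0 without TMM (0.11 and 0.09 for ortho IL-2, 0.11 and 0.12 for WT IL-2).

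Of 26 regulators of class I genes, 25 were tested; 9 rose, 9 fell and 7 did not pass with ortho IL-2, and 8 rose, 5 fell and 12 did not with WT IL-2. These counts are near the background of all genes tested, of which 28.5% rose and 27.4% fell with ortho IL-2 and 25.0% rose and 22.9% fell with WT IL-2, so they say nothing about the list as such. Socs1, the feedback inhibitor of JAK signalling, had 90.4, 73.8 and 114 RPKM with ortho IL-2, 114, 70.3 and 74.3 RPKM with WT IL-2, and 3.33, 3.90 and 5.75 RPKM without IL-2, a log2 change of 4.48 and 4.37. Irf1, an activator of class I genes, averaged 100.2 ± 9.65 RPKM with ortho IL-2 and 92.7 ± 7.58 RPKM with WT IL-2, against 65.8 ± 2.22 RPKM without IL-2. Irf8, an interferon-regulatory factor, rose by log2 1.43 with ortho IL-2 and 1.37 with WT IL-2 at levels below 8 RPKM. The kinases Jak1 and Jak2 fell, with log2 fold changes of -0.66 and -0.63 for Jak1 and -0.84 and -0.75 for Jak2. Rfx5, part of the factor complex on MHC promoters, fell, with log2 fold changes of -0.16 for ortho IL-2 and -0.20 for WT IL-2, but was above 0 on the RPKM scales without TMM (0.11 and 0.01 with the divisor). The other two that fell with WT IL-2, named after their values were seen, were its partner Rfxank (-0.79 for ortho IL-2 and -0.64 for WT IL-2) and the interferon gamma receptor chain Ifngr1 (-0.22 and -0.19). Ifngr1 was above 0 with the divisor (0.06 and 0.02), and Rfxank with the outside-read share as a covariate (0.08 and 0.04).

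Interferon-stimulated genes, a set whose members answer interferons as the class I genes do, rose for the most part. Of 38, 29 were tested; 24 rose, 1 fell and 4 did not pass with ortho IL-2, and 21 rose, 1 fell and 7 did not with WT IL-2. The median log2 fold change of the list was 0.61 in each. Of all genes tested, 28.5% rose and 27.4% fell with ortho IL-2, and 25.0% rose and 22.9% fell with WT IL-2. Gbp5, a guanylate-binding GTPase, averaged 136 ± 13.2 RPKM with ortho IL-2 and 143 ± 12.4 RPKM with WT IL-2, against 37.7 ± 0.99 RPKM without IL-2. The GTPase Igtp rose by log2 1.59 with ortho IL-2 and 1.54 with WT IL-2, Gbp7 by 1.20 and 1.27, and the nucleic acid sensor Zbp1 by 1.26 and 1.23. The 1 that fell, named after its value was seen, was the interferon-induced Ifit2 (-0.78 and -0.71). The 10 tested MHC class II genes, which serve the other presentation pathway, gave 1 higher, 1 lower and 8 not called in each comparison. By the same later choice, H2-Ob, part of an inhibitor of class II loading, fell in both (-0.43 and -0.47), the class II chain H2-Ab1 rose with ortho IL-2 (0.42, beside 0.26 with WT IL-2, not called), and H2-Eb1 rose with WT IL-2 (0.46, beside 0.38 with ortho IL-2, not called).

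**Figure D5:**
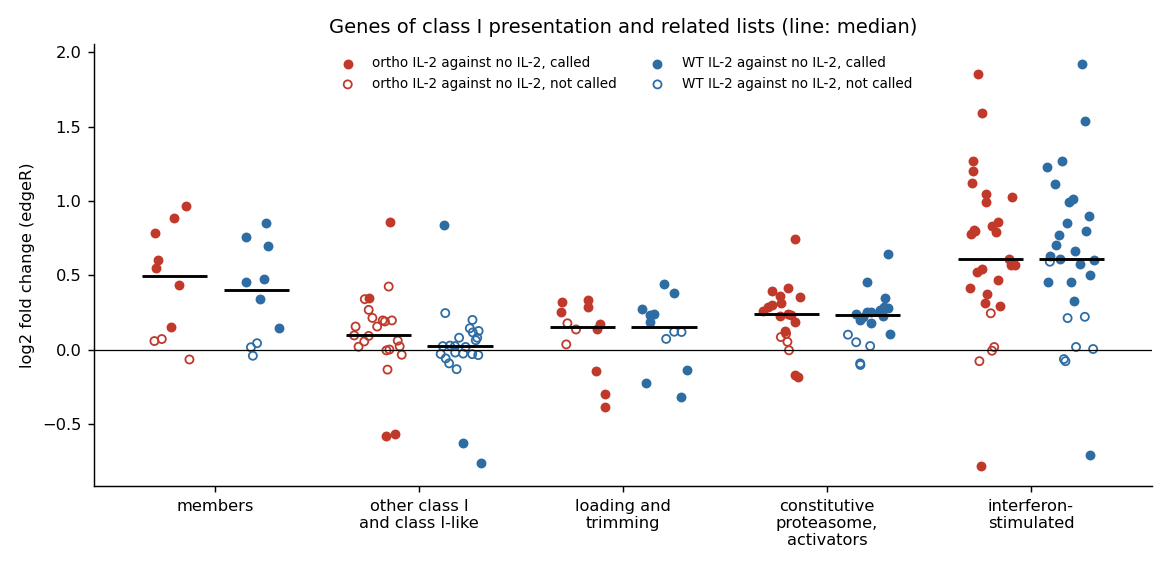
Log2 fold change of each tested gene by list, for ortho IL-2 against no IL-2 in red and WT IL-2 against no IL-2 in blue; filled points were called at an adjusted p under 0.05, open points were not, and the bar is the list's median. Medians are 0.49 and 0.40 for the class I presentation genes, 0.09 and 0.02 for other class I genes, and 0.61 and 0.61 for interferon-stimulated genes.

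The genes whose profile over the 9 libraries was most like each of 5 of the genes were found by Pearson's r of log2 CPM among 5024 other genes with a mean RPKM of at least 10. For Tap1 these were Gm5506, Prelid1 and Eno1 (r = 0.997, 0.997 and 0.996; Gm5506 is a near copy of Eno1 and may share its reads), for Psmb9 Cyc1, Mdh2 and Cdkn2aipnl (0.996, 0.992 and 0.991), and for Nlrc5 Ruvbl2, Slc44a2 and Edem2 (0.994, 0.994 and 0.992). In these 3 cases 395, 368 and 373 genes had an r above 0.95; the libraries fall into a stimulated and an unstimulated cluster. For H2-K1 they were Supt5, Trpc4ap and Itgb7 (0.982, 0.967 and 0.951), with 3 genes above 0.95. For B2m they were Tbp, Hspb11 and Esd (0.931, 0.898 and 0.893), with none above 0.95. These are descriptions over 9 libraries that share groups, depth and base composition, and are given with no test.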

How the data were processed

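Counts of reads per RefSeq transcript and RPKM values were deposited by the authors for 31682 transcripts of 23992 symbols in each of 9 mRNA libraries, 3 per group. Per the file headers, the deposited values are raw read counts and RPKM. The submitters' processing notes name mm10 and, with no roles stated, edgeR, bedtools 2.25.0, SAMtools 0.1.8, TopHat2 and Bowtie2. How reads were counted, and whether strand was used, is not given in the sources used here. The growth protocol label describes another assay, so the culture given rests on the treatment protocol label.

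Each symbol was represented by its transcript with most reads. The 10702 genes that reached an RPKM of 1 in 3 or more libraries were tested. After TMM scaling, counts entered edgeR's quasi-likelihood test (version 4.0.16, R 4.3.3, two-sided) over all 9 libraries, with Benjamini-Hochberg adjustment over all genes tested, a threshold of 0.05 and 95% intervals. The scripts were checked on simulated data. Depth was 16581624 to 58182835 reads in the chosen transcripts, where a floor of 3 reads amounts to 0.0516 to 0.181 CPM, which covers counting error only. No 2 libraries of a group agreed within sampling noise.

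The members and gene lists were chosen with earlier results of these data known. All 10 members were named; from 5 further lists up to 4 genes with the smallest p were named, with Psmb5, Psmb6, Psmb7, Irf1, Rfx5, Il2ra, Cish and Foxp3 whatever their values; other genes are marked in the text as chosen later, and 1 gene that the rule names is not reported here. Alternatives included DESeq2 1.42.0 and limma 3.58.1.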

Additional observations from a re-analysis of the deposited data

How the results depend on the processing

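Among counts of genes and class I presentation genes called, only those adjusted for the share outside the chosen transcripts moved by over 1.5 times. With that share, 1573 of the 10702 genes tested were called for ortho IL-2 and 2130 for WT IL-2 against no IL-2. Those called higher numbered 925 and 1217. Of the 10 genes, 3 were called in each. Whether the replicate numbers pair the samples cannot be settled with 3 libraries per group. Deviations of same-numbered libraries correlated at 0.40, -0.03 and 0.29 for ortho IL-2 against no IL-2. The values were -0.04, -0.05 and -0.29 for WT IL-2 against no IL-2, and -0.04, 0.38 and -0.62 for ortho IL-2 against WT IL-2. Not every library correlated best with its own number. With the replicate block, 5652 and 4788 genes were called, against 5990 and 5122 without it, and the block changed no call of the 10 genes. Without TMM, 85.8% of calls were higher for ortho IL-2 and 83.8% for WT IL-2, with medians of all genes at 0.29 and 0.22; limma on log2(RPKM + 1) gave 85.9% and 83.7%, and on log2(RPKM + 0.1) 86.0% and 84.3%. The cause of the reversals below was not tested. With the RPKM divisor as library size, the log2 fold changes that turned sign were B2m 0.21, Ifngr1 0.056, Psma1 0.11, Psme4 0.092, Rfx5 0.11, Uggt1 0.13 (ortho over no IL-2), and B2m 0.17, Ifngr1 0.023, Psma1 0.11, Psme4 0.12, Rfx5 0.015, Uggt1 0.076 (WT over no IL-2), and B2m 0.039 (ortho over WT). With limma on log2(RPKM + 1), they were B2m 0.21, Ifngr1 0.056, Psma1 0.10, Psme4 0.088, Rfx5 0.10, Uggt1 0.12 (ortho over no IL-2), and B2m 0.17, Ifngr1 0.022, Psma1 0.11, Psme4 0.11, Rfx5 0.014, Uggt1 0.071 (WT over no IL-2), and B2m 0.037 (ortho over WT). With limma on log2(RPKM + 0.1), they were B2m 0.21, Ifngr1 0.056, Psma1 0.10, Psme4 0.092, Rfx5 0.11, Uggt1 0.13 (ortho over no IL-2), and B2m 0.17, Ifngr1 0.023, Psma1 0.11, Psme4 0.12, Rfx5 0.016, Uggt1 0.075 (WT over no IL-2), and B2m 0.037 (ortho over WT). After quantile normalization, they were H2-K1 -0.022, H2-D1 -0.031 (ortho over no IL-2), and H2-K1 -0.0068, H2-D1 -0.051 (WT over no IL-2), and H2-K1 -0.016 (ortho over WT). Without a filter, they were B2m 0.0052 (ortho over no IL-2), and B2m 0.013 (WT over no IL-2). With GC offsets, they were H2-K1 -0.15, H2-D1 -0.12, B2m 0.16, Tapbp -0.077 (ortho over no IL-2), and H2-K1 -0.12, H2-D1 -0.083, B2m 0.11, Tapbp -0.0056, H2-Q2 -0.063 (WT over no IL-2), and H2-K1 -0.031, H2-D1 -0.039, B2m 0.051, Tapbp -0.072 (ortho over WT). With the replicate block and GC offsets, they were H2-K1 -0.15, H2-D1 -0.12, B2m 0.15, Tapbp -0.077 (ortho over no IL-2), and H2-K1 -0.12, H2-D1 -0.083, B2m 0.10, Tapbp -0.0070, H2-Q2 -0.063 (WT over no IL-2), and H2-K1 -0.030, H2-D1 -0.039, B2m 0.051, Tapbp -0.070 (ortho over WT). Adjusted for the share outside the chosen transcripts, they were H2-K1 -0.096, H2-D1 -0.056, Rfxank 0.076 (ortho over no IL-2), and H2-K1 -0.11, H2-D1 -0.056, H2-Q2 -0.017, Rfxank 0.042 (WT over no IL-2). With single libraries left out, those that turned sign ranged over H2-K1 -0.029 to 0.039 (WT over no IL-2), H2-D1 -0.0051 to 0.078 (WT over no IL-2), H2-K1 -0.013 to 0.094 (ortho over WT), H2-D1 -0.041 to 0.080 (ortho over WT), Tapbp -0.020 to 0.040 (ortho over WT), Psmb10 -0.038 to 0.29 (ortho over WT).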
